A study of Mus musculus with 3 samples.

Results

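Tropomyosins and alpha-actinins are the proteins that line and cross-link actin filaments, and their genes were followed here in cardiac myofibroblasts that were attached to plastic, held in suspension and then attached again. The group held 6 genes, Tpm1, Tpm2, Tpm3, Tpm4, Actn1 and Actn4, of 15393 genes measured on the arrays. They were taken by name, through 13 probes whose RefSeq transcript belongs to a gene of the group. The study used the 3 states to search for genes whose RNA changes when the cells lose and regain a stiff surface.

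All cells came from infarcted hearts of male C57BL/6J mice. The labels give an age of 8 weeks in the sample records and of 10 weeks when the left anterior descending coronary artery was permanently tied. Hearts were collected 3 days after the ligation, and cells that attached overnight and lacked CD45, a surface protein of leukocytes, were called myofibroblasts. Adherent cells had grown on plastic plates, non-adherent cells had been moved from the plates to suspension, and re-adherent cells had been returned from suspension to plastic. The study reports that cell number fell in suspension through anoikis, the death of cells that lose their attachment. Re-adherent cells came from the cells that remained. Each state was 1 array of RNA mixed from several hearts, so no biological spread could be computed and no p-value is given. The states were collected one after another, so state and total time in culture cannot be told apart. Changes in RNA per cell and in the mix of cells cannot be told apart in such bulk RNA either.

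Tropomyosins are coiled-coil dimers that join end to end along the groove of the actin filament, where they set how myosin and other proteins reach it. In striated muscle they carry troponin. In other cells their isoforms, made from alternative promoters and exons of the Tpm genes, stabilise different filaments, among them the contractile stress fibres of myofibroblasts. Alpha-actinins are antiparallel dimers that cross-link actin filaments. ACTN1 and ACTN4 are the non-muscle forms, found in the dense bodies of stress fibres and at focal adhesions, where they also bind integrins and vinculin, and ACTN2 and ACTN3 are the forms of the sarcomeric Z-disc.

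The promoters of Tpm1, Tpm2 and Tpm3 are shown because the levels of the first 2 genes differed most between plastic and suspension among the tropomyosins, whereas that of Tpm3 differed little. Given are the 250 bases before 1 start each of Tpm1 and Tpm2 and before 2 starts of Tpm3, from RefSeq for assembly GRCm38.p6, written from 5′ to 3′ on the strand of the gene. Capitals mark GC boxes (GGGCGG on either strand), the MCAT motif of TEAD factors (CATTCC on either strand) and stretches that differ from the CArG box, the site of serum response factor, in 1 base. No 2 marked motifs overlapped, although some adjoin.
Tpm1, chr9:67049214-67049463, minus strand: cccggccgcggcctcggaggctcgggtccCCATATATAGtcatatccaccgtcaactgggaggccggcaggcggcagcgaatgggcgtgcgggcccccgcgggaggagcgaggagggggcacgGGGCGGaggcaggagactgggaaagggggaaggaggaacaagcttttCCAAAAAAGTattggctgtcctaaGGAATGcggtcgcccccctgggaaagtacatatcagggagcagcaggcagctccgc
Tpm2, chr4:43523555-43523804, minus strand: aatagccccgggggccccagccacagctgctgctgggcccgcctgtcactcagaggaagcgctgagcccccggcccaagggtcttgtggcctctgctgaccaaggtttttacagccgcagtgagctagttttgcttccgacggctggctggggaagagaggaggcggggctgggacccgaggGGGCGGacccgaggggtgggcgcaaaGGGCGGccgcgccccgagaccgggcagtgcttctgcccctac
Tpm3 first start, chr3:90072401-90072650, plus strand: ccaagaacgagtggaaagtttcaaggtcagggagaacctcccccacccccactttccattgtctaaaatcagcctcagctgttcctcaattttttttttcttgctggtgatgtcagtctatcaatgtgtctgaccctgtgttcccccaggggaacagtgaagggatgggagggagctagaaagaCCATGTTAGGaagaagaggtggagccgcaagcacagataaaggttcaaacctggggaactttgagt
Tpm3 second start, chr3:90079271-90079520, plus strand: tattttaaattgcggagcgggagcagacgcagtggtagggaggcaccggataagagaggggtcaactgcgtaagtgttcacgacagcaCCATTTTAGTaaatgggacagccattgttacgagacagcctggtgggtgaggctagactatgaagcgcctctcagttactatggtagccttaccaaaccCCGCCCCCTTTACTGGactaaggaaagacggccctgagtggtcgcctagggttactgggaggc

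None of the 7 promoter windows of the 6 genes, which also include 50 bases after the start, held an exact CArG box, against 1.63% of 32851 windows in the mouse table. A CArG box with 1 other base was present in 3 of the 7 windows, that of Tpm1 and both of Tpm3, against 21.1% of all windows. The MCAT motif was found in Tpm1, 56 bases before the start, and in Actn4, 216 bases before the start, against 14.7% of all windows. GC boxes were present in 6 of the 7 windows and in 35.7% of all windows. Of the bases before the start 65.2% were G or C in Tpm1 and 69.6% in Tpm2, against 48.8% and 53.6% in the 2 windows of Tpm3 and a median of 52.4% over all windows. These matches describe the letters of short windows only, and other starts of these genes and more distant sequence were not searched. Whether the transcripts read by the probes begin at these starts was not tested. The genes Tpm1 and Tpm2 extend beyond the starts used here, to position 67049672 of chromosome 9 and 43523583 of chromosome 4.

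In suspension 5 of the 6 genes were over 2-fold lower than on plastic, and none was over 2-fold higher, where 14.7% of all 15393 genes were lower and 17.2% higher by that much. A gene is given here by its brightest probe, and differences are on the log2 scale after the signal of each array was divided by its 75th percentile. Over 4-fold lower were 4 of the 6, Tpm1, Tpm2, Tpm4 and Actn1, against 5.34% of all genes. The median difference of the 6 genes was -2.76, beside -0.07 for all genes. On re-adhesion the same 5 genes were over 2-fold higher than in suspension and none was lower, where 15.6% of all genes were higher and 16.3% lower. The same 4 of the 6 genes were over 4-fold higher, against 5.7% of all genes, and the median was 2.48, beside 0.08. Tpm4 was under 4-fold on re-adhesion with the authors' values (1.84), without scaling (1.75), after quantile normalization (1.51) and with spike-in scaling (1.92), and in suspension after quantile normalization (-1.83). These 2 steps share the non-adherent array, so they are not independent of each other. The 6 genes were chosen with earlier results of these arrays known, so their counts, by gene and by probe, are descriptions.

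**Figure D1:**
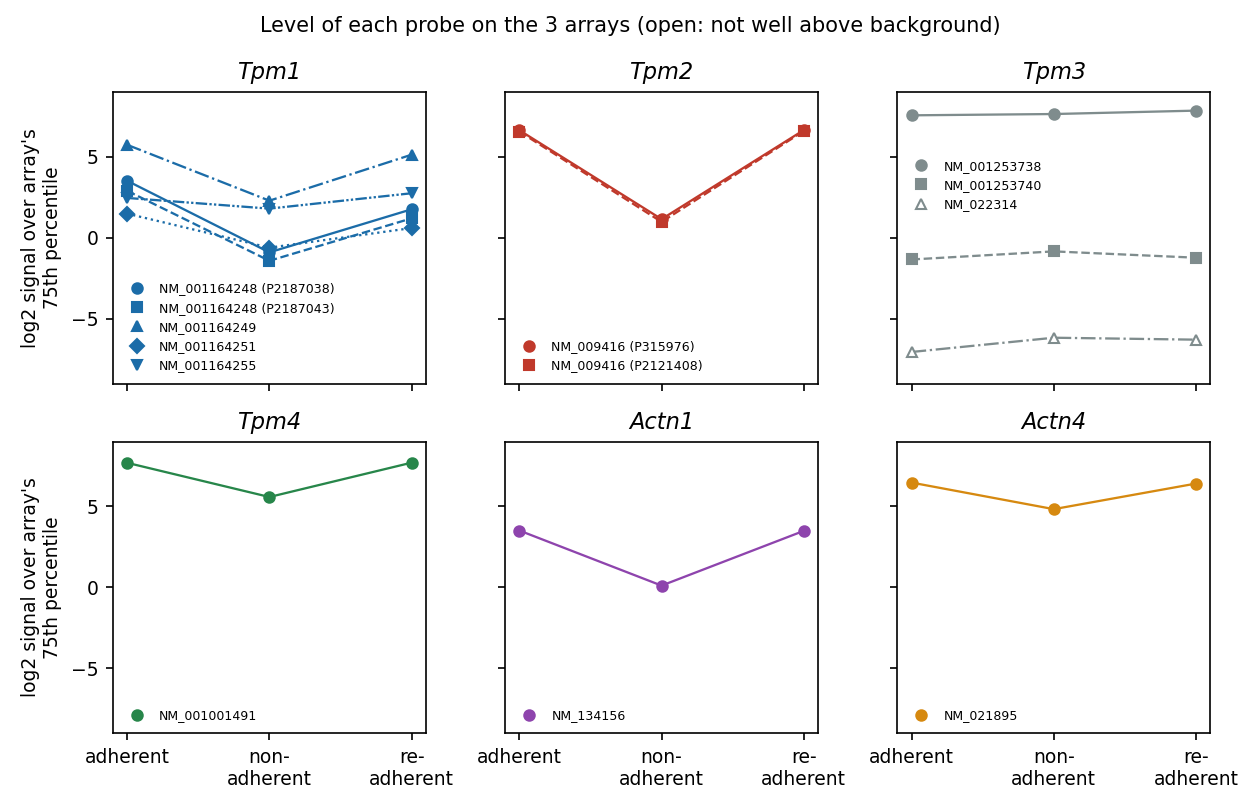
Level of every probe of the 6 genes in adherent, non-adherent and re-adherent cells, as log2 signal over the 75th percentile of the array. Each line is a probe, named by its transcript (and by its number where a transcript has several), filled points were well above background and open points were not. All lines but those of Tpm3 are lowest on the non-adherent array, whereas the brightest probe of Tpm3 stayed between 7.56 and 7.85 and the dim open probe has no usable level.

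Tpm2, which encodes the beta chain of tropomyosin, was the member with the largest difference. The gene lies on the minus strand of chromosome 4, at chr4:43513726-43523583 of GRCm38.p6. Its probe A_52_P315976 gave 65085 intensity units in adherent, 1549 in non-adherent and 54432 in re-adherent cells. The second probe of the same transcript, NM_009416, gave 61603, 1376 and 52096 units. Both probes were bright on plastic and far lower in suspension, where they were still well above background. Their scaled log2 levels in suspension were 1.15 and 0.98, above the percentile used for scaling. After scaling, Tpm2 was lower in suspension by 5.49 on the first probe and 5.58 on the second, which is 45-fold and 47.9-fold, and higher again by 5.50 and 5.61 on re-adhesion. Ordered from the lowest difference in suspension, Tpm2 stood at rank 41 of 15393 genes. Tpm2 was also the only 1 of the 6 genes over 16-fold different on both steps, as were 0.806% of all genes. The re-adherent level was 101% and 102% of the adherent level, a difference of 0.01 and 0.02 that was smaller than its technical error of 0.20 but reached -0.45 when arrays were scaled to spike-in probes.

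Tpm1 encodes the alpha chain and was read by 5 probes for 4 of its 10 curated RefSeq transcripts (gene at chr9:67022590-67049672, minus strand). The brightest probe, for NM_001164249, gave 34854 units in adherent, 3404 in non-adherent and 18956 in re-adherent cells. Its level was 11-fold lower in suspension (-3.45) and 7.17-fold higher on re-adhesion (2.84), and ended at 65.4% of its adherent level (-0.61, technical error 0.20). Both probes for NM_001164248 gave a larger difference. One of them gave 7457, 374.2 and 1839 units and the other 4852, 259.8 and 1244 units in the same order, so both were low in suspension and in between on re-adhesion. They were lower in suspension by 4.41 and 4.32 and higher on re-adhesion by 2.66 and 2.62. Their re-adherent level was 29.6% and 30.8% of the adherent level, with differences of -1.75 and -1.70.

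The remaining Tpm1 probes changed less. The probe for NM_001164251 gave 1823, 455.9 and 817.7 units, a difference of -2.10 in suspension and 1.21 on re-adhesion, and ended at 53.9% of its adherent level. The probe for NM_001164255 gave 3571, 2425 and 3642 units, and was the only Tpm1 probe within 2-fold on both steps, at -0.66 and 0.95. It ended above the adherent level by 0.29, or at -0.17 with spike-in scaling, whereas the other 4 probes ended below it under every scaling tried.

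Tpm1 probes thus differed from each other by more than the technical error. Between NM_001164248 (probe A_55_P2187038) and NM_001164255, the gap was -3.76 in suspension and -2.05 in re-adherent against adherent cells, each with an error of 0.29. The pair of probes for NM_001164248 had gaps of -0.09 and -0.06, within that error. Over the 5 probes the SD of the difference in suspension was 1.60, where the 3482 genes with more than 1 probe clear of background in every state had a median SD of 0.17 and 0.747% of them had a larger SD than Tpm1. For re-adherent against adherent cells the SD was 0.85, beside a median of 0.11, with 1.15% of genes larger. These genes were not matched to Tpm1 by the size of their difference. The scanner files hold no probe sequences, so which exons the probes read, and whether they also bind other transcripts of the family, was not tested.

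**Figure D2:**
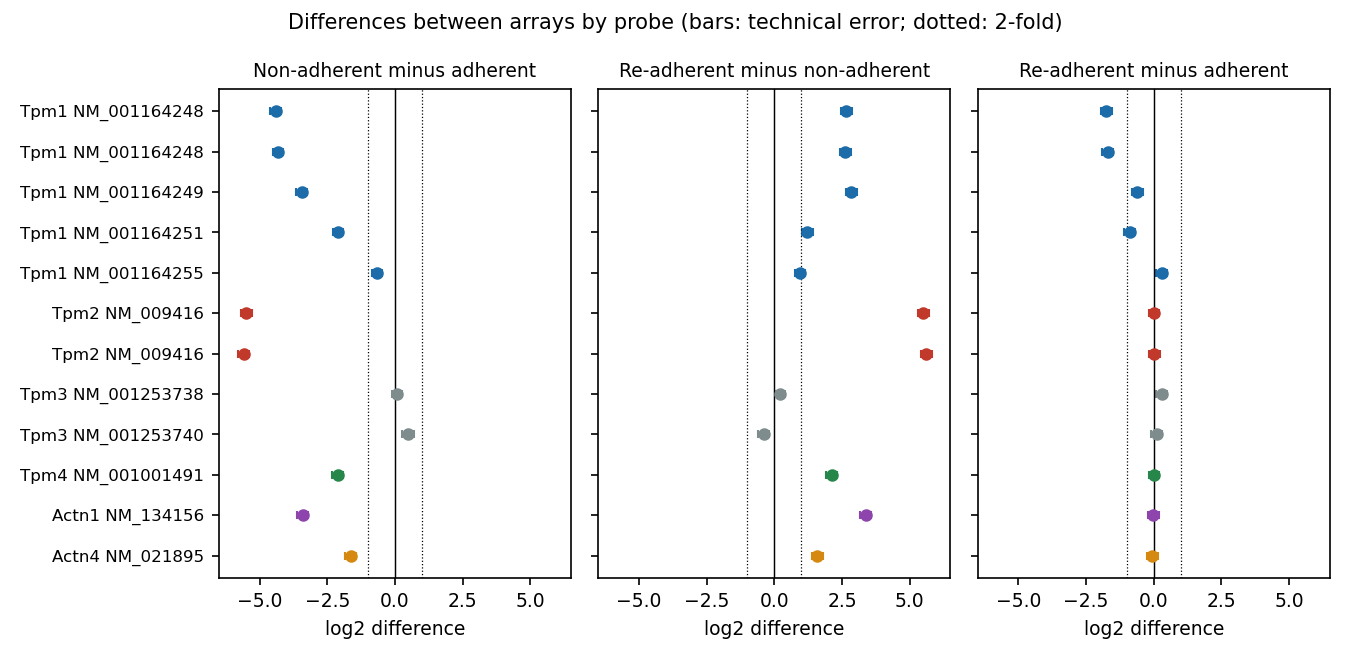
Log2 differences for the 12 probes well above background, in the 3 pairs of arrays. Bars are technical errors from the scanner software, mostly narrower than the points, and dotted lines mark 2-fold. The 5 Tpm1 probes spread from -4.41 to -0.66 in suspension and from -1.75 to 0.29 in re-adherent against adherent cells, while both Tpm2 probes lie together.

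Tpm4, which encodes a tropomyosin of non-muscle cells, was read by a single probe for NM_001001491 (gene at chr8:72135288-72153142, plus strand). The probe read 134439 units in adherent cells, 33314 in non-adherent cells and 112398 in re-adherent cells. The level in suspension was 4.32-fold lower (-2.11), and that on re-adhesion 4.34-fold higher (2.12). Re-adherent cells were at 101% of the adherent level, with a range over settings of -0.45 to 0.03 on the log2 scale.

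Tpm3 encodes the gamma tropomyosin chain, made as a muscle form and as short forms in most cells. The gene lies at chr3:90072651-90100902 on the plus strand. The brightest of its 3 probes, for NM_001253738, gave 122742 units on the adherent, 138726 on the non-adherent and 124603 on the re-adherent array, so no array stood apart. Its difference in suspension was 0.08 with an error of 0.20, and its sign depended on the scaling, from -0.19 with spike-in probes to 0.56 after quantile normalization. On re-adhesion the difference was 0.21, or -0.60 after quantile normalization. The probe for NM_001253740 was dimmer, with 258, 388.6 and 230.2 units, and differed by 0.49 in suspension and by -0.39 on re-adhesion, which is more than its error of 0.21 and less than 2-fold. The probe for NM_022314 did not stand well above background in any state, at 4.899, 9.708 and 6.93 units, and has no usable fold.

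Actn1 (chr12:80167542-80260420, minus strand) was represented by a single probe for NM_134156, and gave 7418 units in adherent, 751.6 in non-adherent and 6075 in re-adherent cells. Suspension was low and the plastic arrays were close to each other. The difference was -3.40 in suspension, a 10.6-fold lower level, and 3.38 on re-adhesion, and re-adherent cells were at 98.5% of the adherent level. Actn4 (chr7:28893248-28962351, minus strand), read by a probe for NM_021895, gave 57604, 19853 and 46161 units. It was 3.11-fold lower in suspension (-1.63) and 2.99-fold higher on re-adhesion (1.58), and ended at 96.4% of the adherent level. The difference of Actn1 in suspension minus that of Actn4 was -1.77, and on re-adhesion the gap was 1.80, with errors of 0.29.

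By size of the difference in suspension the order of the genes was Tpm2, Tpm1, Actn1, Tpm4, Actn4 and Tpm3. Subtracting the second difference from the first, neighbours in this order were -2.04 (Tpm2 and Tpm1), -0.05 (Tpm1 and Actn1), -1.29 (Actn1 and Tpm4), -0.48 (Tpm4 and Actn4) and -1.71 (Actn4 and Tpm3) apart, with an error of 0.29 for each. Tpm1 and Actn1 thus could not be told apart on this step by the brightest Tpm1 probe. The place of Tpm1 depends on the probe: its probes ran from -4.41 to -0.66. With their mean Tpm1 was at -2.99, behind Actn1 at -3.40. On re-adhesion the difference of Tpm1 minus that of Actn1 was -0.54. A gap between 2 genes on the same pair of arrays does not depend on a constant that scales a whole array: the difference of Tpm2 minus that of Tpm3 was -5.57 in suspension and 5.29 on re-adhesion.

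**Figure D3:**
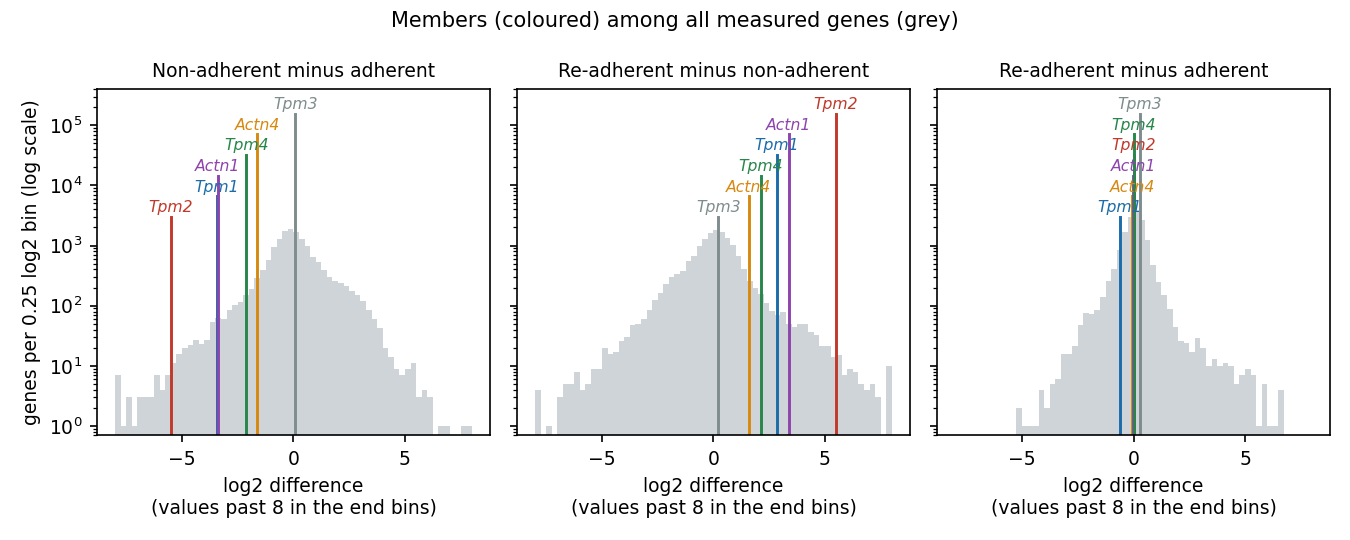
Distribution of the log2 difference over all 15393 genes in the 3 pairs of arrays (grey, counts on a log axis), with each of the 6 genes as a coloured line whose height has no meaning. In suspension Tpm2 lies in the far lower tail and Tpm3 near the middle, and in re-adherent against adherent cells all 6 lie between -0.61 and 0.29.

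Counted by probe, 9 of the 12 probes well above background on at least 1 array were over 2-fold lower in suspension, and 9 were over 2-fold higher on re-adhesion, beside 14.7% and 15.8% of 35051 such probes on the array. The exceptions were the probe for NM_001164255 of Tpm1 and both measured Tpm3 probes. On re-adhesion the count was 8 with the authors' values and without scaling, where the probe for NM_001164251 of Tpm1 was at 0.93 and 0.84. In re-adherent against adherent cells none of the 6 genes differed over 2-fold, where 4.9% of all genes were lower and 4.84% higher, and their median was -0.01 beside 0.06 for all genes. By probe, 2 of the 12, both for NM_001164248 of Tpm1, were over 2-fold lower and none was higher, beside 7.11% and 4.83% of all probes. That count was 3 with the authors' values and without scaling, where the probe for NM_001164251 was at -1.07 and -1.16, and 4 with spike-in scaling, where the probe for NM_001164249 passed too. Tpm1 was the member farthest from its adherent level, at rank 1569 of 15393 genes from the lowest, and Tpm3 lay 0.29 above its own, or -0.17 with spike-in scaling.

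Proteins that bind tropomyosin-coated filaments were a list of 16 genes, of which 15 were measured and Lmod2 was on the array but not above background. In suspension 3 of the 15 were over 2-fold lower and 4 higher, beside 14.7% and 17.2% of all genes, and their median was -0.12. Over 4-fold lower were Cald1 and Lmod1. Cald1, which encodes caldesmon, a protein that holds tropomyosin on actin in smooth muscle and stress fibres, had a difference of -3.09 in suspension. Lmod1, which encodes the filament nucleator leiomodin of smooth muscle, did not stand well above background in suspension. With its level there set to the smallest signal that passed the background test, adherent cells were 10.6-fold higher and re-adherent cells 6.79-fold higher. These are rough bounds, since spots can fail the test above such a signal. On the adherent array Tnni3 failed at 21.04 units, where the smallest passing signal was 16.7. Tnni2, a troponin inhibitor chain of fast muscle, was 2.36 higher in suspension. The tropomodulins Tmod2, Tmod3 and Tmod4, of a family whose members cap the ends of these filaments, differed by -0.80, -0.28 and -0.39, each under 2-fold. Tmod1 and Tnni3, both among the 4 counted as higher, were not well above background in adherent cells, so the size of their difference is not known.

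Proteins that bind alpha-actinin, with the sarcomeric forms themselves, were a list of 19 genes, of which 16 were measured. Actn2, Mypn and Myoz2 were on the array but not above background, and Actn3 differed by 0.06 in suspension. Of the 16, 8 were over 2-fold lower in suspension and 2 higher, beside 14.7% and 17.2% of all genes, with a median of -1.41 beside -0.07. On re-adhesion 8 were higher and 2 lower, beside 15.6% and 16.3% of all genes, with a median of 1.36 beside 0.08. Over 4-fold lower in suspension were 7 genes, beside 5.34% of all genes. Vcl (-3.24) encodes vinculin, which ties integrin adhesions to actin, and Palld (-3.24) encodes the stress fibre scaffold palladin. The others were the adhesion protein gene Zyx (-2.27), the synaptopodin gene Synpo (-2.32) and the PDZ-LIM genes Pdlim1, Pdlim2 and Pdlim7 (-2.34, -2.57 and -2.40). Pdlim4, of the same PDZ-LIM family, was 3.32 higher in suspension and differed by -2.16 on re-adhesion. Both lists were written with earlier results of these arrays known, so their counts are descriptions.

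**Figure D4:**
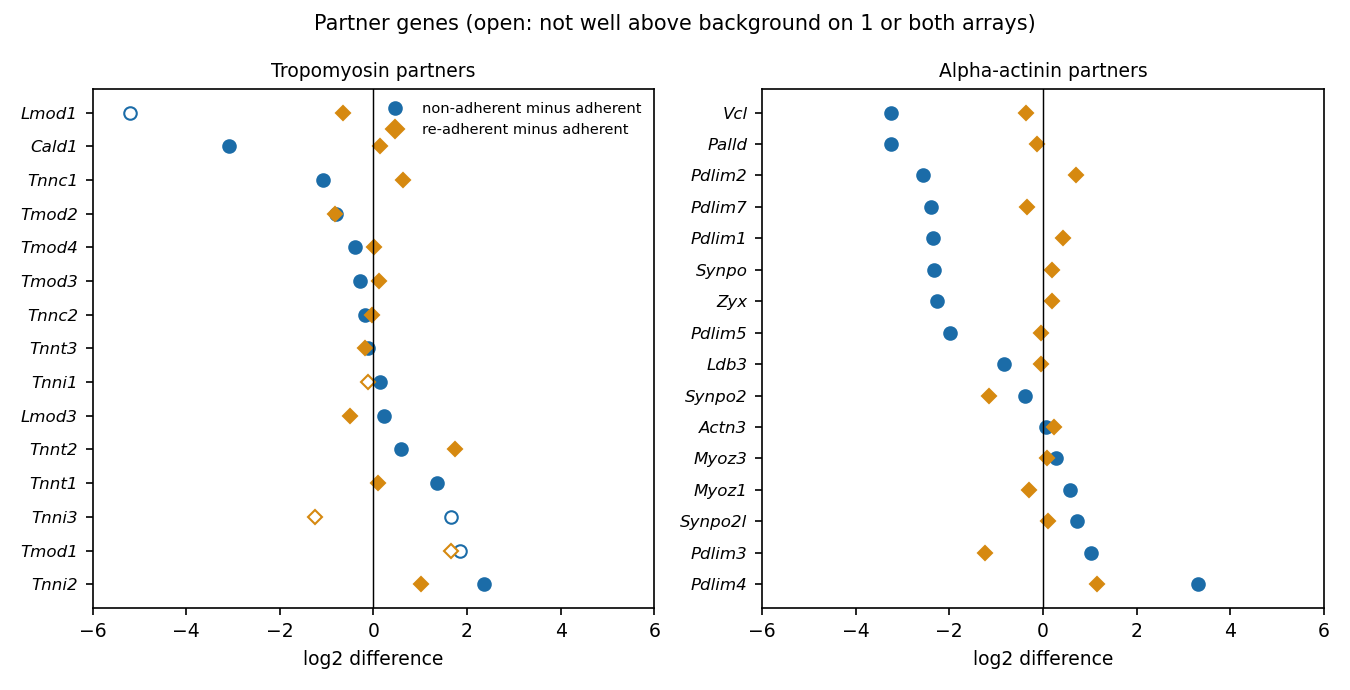
Log2 differences of tropomyosin partner genes and of alpha-actinin partner genes, for non-adherent minus adherent (circles) and re-adherent minus adherent arrays (diamonds). Open symbols were not well above background on at least 1 of the arrays compared. Among alpha-actinin partners 8 of 16 circles lie over 2-fold below 0, while 13 of 16 diamonds lie within 2-fold of it.

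For each member the 3 genes with the most similar pattern were sought, by the distance between the log2 differences of non-adherent and re-adherent from adherent cells, over 3 arrays and among 13474 genes well above background on all of them. Tpm1 lay nearest to Tnc, which encodes tenascin-C (distance 0.045), then to Cmah and C1ql3. Tpm2 lay nearest to Mycn (0.006) and Cavin2 (0.076), with Lurap1l next. Nearest to Tpm4 were Eogt, Il1rap and Adam12, nearest to Actn1 were Uck2, Apol7a and Heg1, and nearest to Actn4 were Nectin1, Cyth3 and Fmnl2. Tpm3 lay nearest to Rnf169, Eif4a3 and Nit2. Within a distance of 0.2 there were 2 genes for Tpm2, 8 for Tpm1, 12 for Actn1, 41 for Tpm4, 109 for Actn4 and 755 for Tpm3. A difference has a technical error of 0.20, and a gap between 2 genes has 1 of 0.29, so the order of the nearest genes is not settled. Tpm1 was placed by its brightest probe only.

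Markers of other cells moved with the states. All 10 fibroblast markers were well above background on every array, and their summed scaled signal, in multiples of the 75th percentile, was 1770 in adherent, 896 in non-adherent and 1470 in re-adherent cells. In suspension 4 of them were over 2-fold lower and 2 higher, beside 14.7% and 17.2% of all genes. A sum mostly follows its brightest genes. Acta2, the gene of smooth muscle actin and a marker of myofibroblasts, gave 435300 units in adherent and 4690 in non-adherent cells, a scaled difference of -6.64. Postn, the gene of periostin, which the study also names as a myofibroblast marker protein, differed by only -0.12 in suspension and -0.09 on re-adhesion. Thy1 had a difference of -3.50, while the collagen-binding proteoglycan genes Dcn and Lum were 1.69 and 3.56 higher and Col3a1 differed by 0.19. Of 18 macrophage markers 16 were measured, all well above background on every array, with sums of 365, 2010 and 619. In suspension 15 of these 16 were over 2-fold higher, beside 17.2% of all genes, and Itgam differed by -0.84. Among the 16, Ptprc, the gene of CD45, gave 355.4 units in adherent, 2441 in non-adherent and 531.7 in re-adherent cells. In re-adherent cells 8 of the 16 were over 2-fold above their adherent level, beside 4.84% of all genes. None was over 2-fold below it, and the median was 1.01. Endothelial markers summed to 23.7, 37.1 and 22.3, with 7 of 10 over 2-fold higher in suspension, against the same 17.2%. On the re-adherent array Tie1, Emcn and Erg were not well above background. Although the sums on plastic were close, 6 of the 10 ended over 2-fold below their adherent level, beside 4.9% of all genes. None ended over 2-fold above it, and the median was -1.77. Kdr, the brightest of the 10 on plastic, ended 0.39 higher. Smooth muscle and pericyte markers summed to 62.5, 65.7 and 57.6, with 4 of 8 over 2-fold lower in suspension, against 14.7% of all genes, and Myh11, the gene of smooth muscle myosin, not well above background there. Of 8 cardiomyocyte markers 5 were measured, and they summed to under 1 on each array, at 0.373, 0.643 and 0.369. The part of these marker changes in the differences of the 6 genes was not tested.

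Of 59305 spots other than controls, 58.1% were well above background on the adherent, 59.9% on the non-adherent and 53.9% on the re-adherent array, with no saturated spot. For each pair of arrays the median error that the software gives a difference was 0.20, and probes spotted 10 times gave 0.10 to 0.11. Around the 13 member spots, the median difference of neighbouring spots lay between -0.36 and 0.04 in suspension, between 0.01 and 0.38 on re-adhesion and between -0.06 and 0.16 for re-adherent against adherent cells.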

How the data were processed

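RNA of cardiac myofibroblasts was measured on 1-colour Agilent SurePrint G3 mouse arrays, with 1 array for each of 3 states. The authors deposited scanner output of Agilent Feature Extraction 10.10.1.1, whose processed signal is a background-subtracted, spatially detrended intensity on a linear scale. The deposited matrix also holds intensity values, each equal to the processed signal times 1 constant per array (1.52, 1.52 and 1.62), and was an alternative here. Flagged outlier spots were left out, log2 signals were reduced by the 75th percentile of each array, and spots of a probe were averaged. Of 55665 probes, 27229 got a symbol through RefSeq accessions of GRCm38.p6. Genes with a probe well above background on at least 1 array were kept, each by its brightest probe. Functions were tested on simulated data. The files hold no mean spot signal, so the normexp correction (limma 3.58.1 in R 4.3.3, offset 50) used median signals. Tables were made in Python 3.11.15 with pandas 2.3.3. The members and lists were chosen with earlier results of these data known, and values are given for every member probe, for partner genes over 4-fold different in suspension with others as counts or examples, for markers as sums, counts and examples, and for the 3 nearest genes per member. Where a probe was dim on 1 array, the fold was bounded roughly. The bound used whichever was higher there, its own signal or the smallest signal that passed the background test. The number of arrays limits the precision.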

Additional observations from a re-analysis of the deposited data

How the results depend on the processing

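No paired analysis was possible because the states had a single array apiece, and leaving out an array was not possible for the same reason. The counts of members over 2-fold lower or higher stayed within 1.5 times under the 13 alternatives, except that 1 member, Tpm1, was over 2-fold lower in re-adherent than in adherent cells with spike-in scaling, under which all genes had a median of -0.40 in place of 0.06. With spike-in scaling 4 member probes in place of 2 were over 2-fold lower in that pair. The median of the 6 genes in suspension was -3.02 with spike-in scaling and -2.55 with the mean of the probes of a gene. On re-adhesion it was 2.20 with the authors' values, 2.12 without scaling, 2.07 after quantile normalization and 2.09 with the mean of the probes. For re-adherent against adherent cells it was -0.27 without scaling, -0.27 after quantile normalization and -0.47 with spike-in scaling. No difference over 2-fold changed sign. Tpm2, Tpm1, Actn1, Tpm4 and Actn4 kept their direction on both steps in all settings, whereas Tpm3 changed sign on each step. Without scaling all genes had a median of -0.28 on re-adhesion and -0.20 for re-adherent against adherent cells. The lack of replicate arrays limits every value.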
